A study of Homo sapiens with 8 samples.

Results

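The MYC, MAX and MXD network is a family of basic helix-loop-helix leucine zipper transcription factors that pair with each other on E-box DNA. Its 10 genes MYC, MAX, MXD1, MXD3, MXD4, MXI1, MNT, MLX, MLXIP and MGA were taken by gene name from a table of 25066 genes, and all 10 were found. All 10 also passed the filter on low values that left 12531 genes for testing. RNA was sequenced from TMD8 cells, a human lymphoma cell line of the activated B cell-like (ABC) class of diffuse large B cell tumours, which live on signalling from the B cell receptor. Every culture carried Cas9. The groups were sgKLHL14 cells given ibrutinib, sgCTRL cells given ibrutinib, sgKLHL14 cells given DMSO and sgCTRL cells given DMSO, with 2 libraries in each of the 4 groups. The sgKLHL14 cells carried a guide RNA against KLHL14, an adaptor of a ubiquitin ligase, and are labelled KLHL14(-/-). The sgCTRL cells carried a control guide and are labelled KLHL14(+/+). Ibrutinib, a covalent inhibitor of the kinase BTK, was given at 2 nM for 24 h, and DMSO is its solvent. Whether either kind of cell was a single clone or a pool is not given in the sources used here.

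MYC binds DNA only as a partner of MAX and raises transcription of genes for ribosome production, nucleotide synthesis and the cell cycle. MXD1, MXD3, MXD4, MXI1 (also called MXD2) and MNT also pair with MAX, but they recruit SIN3 and histone deacetylases and repress genes with the same E-box. MLX pairs with MLXIP (MondoA), a factor that enters the nucleus when glucose phosphates build up, and also with some MXD proteins. MGA pairs with MAX within a Polycomb complex of the type PRC1.6. In B cells MYC is induced by receptor and NF-kB signalling and drives growth and division.

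The libraries held 12333876 to 23467110 reads, with 12333876 to 16843591 in ibrutinib and 13497206 to 23467110 in DMSO. Replicate libraries correlated at 0.994 to 0.996 across genes. The guide target was read first: in libraries labelled sgKLHL14 there was no lower KLHL14 mRNA, with log2 levels of 13.16 and 13.16 with sgKLHL14 in ibrutinib, 12.30 and 12.30 with sgCTRL in ibrutinib, 12.19 and 12.33 with sgKLHL14 in DMSO, and 12.07 and 12.06 with sgCTRL in DMSO. KLHL14 was higher with sgKLHL14 by 0.86 in ibrutinib (adjusted p = 2.62e-08 by limma) and by 0.20 in DMSO (adjusted p = 0.107). Its ibrutinib response was greater with sgKLHL14 by 0.66 (adjusted p = 0.00164 by limma). That last call was lost without the filter on low values or without a variance trend (adjusted p = 0.149 and 0.488). A small cut in a gene need not lower its mRNA, so the KLHL14 level does not check the guide. BTK mRNA rose with ibrutinib by 0.28 with sgKLHL14 and by 0.17 with sgCTRL (log2, limma, adjusted p = 0.000585 and 0.0282). All 7 B cell markers passed the level filter, and their summed log2 level was 16.82 to 16.86 in ibrutinib, against 16.28 to 16.39 in DMSO. Of 6 T cell markers that the table held, 2 passed (CD4 and CD8A), with a summed level of 6.53 to 6.73 in ibrutinib and 5.53 to 5.84 in DMSO. CD3D, CD3E and IL7R were listed at 0 in all libraries. Of 6 myeloid markers 1 passed, and their sum was 5.41 to 6.53 in ibrutinib and 5.17 to 5.53 in DMSO, with MPO at 0. Of 6 epithelial and fibroblast markers 4 passed, and their sum was 8.92 to 9.09 in ibrutinib and 8.68 to 8.99 in DMSO. That sum holds genes that ran apart: DCN averaged 6.39 and COL1A1 7.23 with sgKLHL14 in ibrutinib, against 4.84 and 6.32 in DMSO, and 6.41 and 7.47 with sgCTRL in ibrutinib, against 4.47 and 6.41 in DMSO. KRT8 averaged 7.63 with sgKLHL14 in ibrutinib, against 8.22 in DMSO, and 7.49 with sgCTRL in ibrutinib, against 7.96 in DMSO, while EPCAM and KRT18 were at or near 0. The part of these markers in the results was not tested. In bulk libraries fewer cells of a type and less RNA per cell cannot be told apart. The p-values measure the spread between libraries, which may be technical, since the labels do not say whether a group's libraries came from separate cultures.

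Levels below are the deposited log2 values, in which each library was scaled by the authors. To compare the genes with each other, the values were divided by transcript length in kilobases. On that log2 scale per kilobase MYC was the highest of the network, with a mean level over the 8 libraries of 10.99. MAX at 9.78 and MLX at 9.69 came next, and their libraries overlapped. MLXIP at 7.42, MXI1 at 7.30, MGA at 7.06 and MNT at 6.85 followed, each overlapping its neighbour in that order across libraries. MXD3, with a level of 6.64, overlapped MNT but lay above all libraries of the genes after it. MXD4 at 5.34 and MXD1 at 5.33 were the lowest, and their libraries overlapped.

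**Figure D1:**
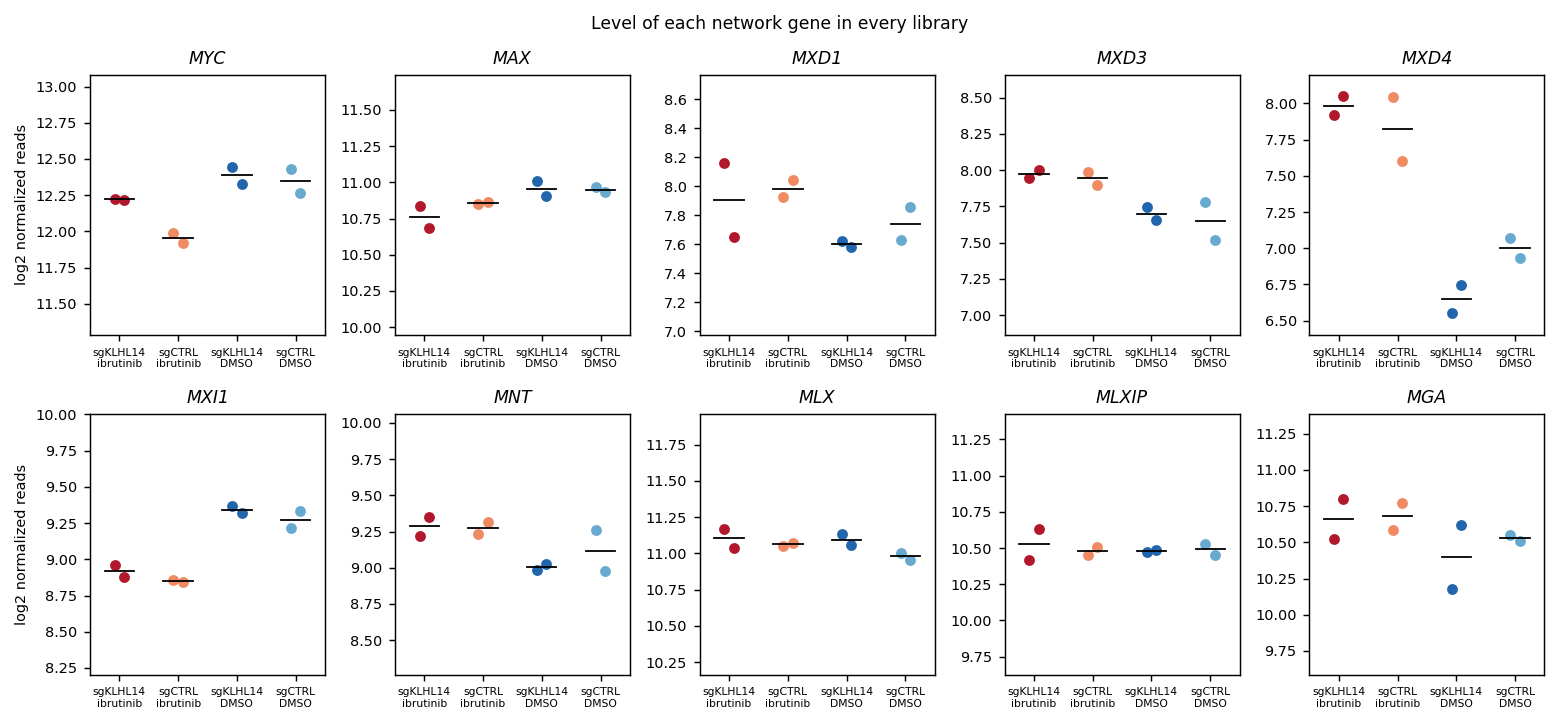
Deposited log2 level (y axis) of the 10 network genes, 1 panel per gene, in each library (points) of the 4 guide and treatment groups, with the group mean as a line. In the MXD4 panel the ibrutinib libraries lie between 7.60 and 8.05 and the DMSO libraries between 6.55 and 7.07, whereas in the MXI1 panel the ibrutinib libraries lie below the DMSO libraries.

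MYC mRNA was lower in ibrutinib with both guides, past the threshold with sgCTRL. With sgKLHL14 its log2 level was 12.22 and 12.22 in ibrutinib, against 12.45 and 12.33 in DMSO, from 2939 and 2180 reads against 4772 and 4202 reads. Both ibrutinib libraries lay below both DMSO libraries, but the difference of -0.17 missed the threshold (SE 0.066, 95% interval -0.30 to -0.027, adjusted p = 0.0543 by limma with Benjamini-Hochberg adjustment over all genes tested). That difference turned on single DMSO libraries: without replicate 1 of sgKLHL14 in DMSO it was -0.10 (adjusted p = 0.310), and without replicate 2 it was -0.23 (adjusted p = 0.0227). With sgCTRL the level was 11.99 and 11.92 in ibrutinib, against 12.43 and 12.27 in DMSO, from 2483 and 1911 reads against 2763 and 4242 reads. The groups did not overlap. MYC fell by 0.40 there (SE 0.066, 95% interval -0.54 to -0.26, adjusted p = 0.000110 by limma), to 0.759 times the DMSO level. A larger absolute change than that of MYC was seen for 59.2% of genes with sgKLHL14 and 23.6% with sgCTRL.

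MAX, the shared partner, had a log2 level of 10.84 and 10.68 in ibrutinib with sgKLHL14, against 11.01 and 10.91 in DMSO. It fell by 0.19 there (SE 0.071, adjusted p = 0.0352 by limma). With sgCTRL the level was 10.85 and 10.86 in ibrutinib and 10.97 and 10.93 in DMSO, a difference of -0.09 that missed the threshold (adjusted p = 0.324 by limma). The ibrutinib libraries were the lower ones with both guides. The MAX call rested on single libraries: without replicate 1 of sgKLHL14 in DMSO the difference was -0.14 (adjusted p = 0.198), and without replicate 2 of sgKLHL14 in ibrutinib it was -0.12 (adjusted p = 0.313). Leaving out a library of a group not compared, sgCTRL in ibrutinib, also ended it (adjusted p = 0.0572 without replicate 1 and 0.0571 without replicate 2).

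Among the MXD repressors, MXD4 and MXI1 moved in opposite directions. MXD4, which is linked to cells that leave the cell cycle, had the largest change of the network genes with both guides. Its log2 level with sgKLHL14 was 7.92 and 8.05 in ibrutinib, against 6.55 and 6.75 in DMSO, from 149 and 121 reads against 80 and 88 reads. With sgCTRL it was 8.04 and 7.60 in ibrutinib, against 7.07 and 6.93 in DMSO, from 161 and 96 reads against 67 and 105 reads. The groups were apart with both guides, and the single low ibrutinib library, replicate 2 with sgCTRL, still lay above all 4 DMSO libraries. MXD4 rose 2.52-fold with sgKLHL14 (log2 1.34, SE 0.167, 95% interval 0.99 to 1.69, adjusted p = 3.64e-06 by limma) and 1.77-fold with sgCTRL (log2 0.82, SE 0.167, 95% interval 0.47 to 1.17, adjusted p = 0.000759). A larger absolute change was seen for 2.09% of genes with sgKLHL14 and 6.65% with sgCTRL. The call with sgCTRL was lost when genes of low level entered the fit (adjusted p = 0.0619).

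MXI1, a repressor of the same kind, had a log2 level of 8.96 and 8.88 with sgKLHL14 in ibrutinib, against 9.37 and 9.32 in DMSO. With sgCTRL it was 8.86 and 8.84 in ibrutinib, against 9.22 and 9.33 in DMSO. All 4 ibrutinib libraries lay below all 4 DMSO libraries. MXI1 fell by 0.42 with sgKLHL14 (SE 0.093, 95% interval -0.62 to -0.23, adjusted p = 0.00135 by limma) and by 0.42 with sgCTRL (adjusted p = 0.00159). These calls held under all 18 alternative settings.

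MXD1, an antagonist that appears as cells differentiate, had a log2 level of 8.16 and 7.65 with sgKLHL14 in ibrutinib, against 7.62 and 7.58 in DMSO. With sgCTRL it was 7.93 and 8.04 in ibrutinib, against 7.63 and 7.85 in DMSO. The ibrutinib libraries were the higher ones with each guide, but the differences of 0.31 with sgKLHL14 and 0.24 with sgCTRL missed the threshold (SE 0.157, adjusted p = 0.133 and 0.246 by limma). With sgKLHL14 that difference turned on either ibrutinib library: without replicate 1 it was 0.052 (adjusted p = 0.835), and without replicate 2 it was 0.56 (adjusted p = 0.0151). MXD3, which is expressed in dividing cells, had a log2 level of 7.95 and 8.00 with sgKLHL14 in ibrutinib, against 7.74 and 7.66 in DMSO. With sgCTRL it was 7.99 and 7.90 in ibrutinib, against 7.78 and 7.52 in DMSO. The differences of 0.28 and 0.29 missed the threshold too (SE 0.135, adjusted p = 0.116 and 0.102 by limma). MXD1 shares exon bases with SNRNP27, and MXD3 with RAB24, on the same strand, so some of their reads may belong to those genes. Exons of MXD3 also overlap PRELID1 on the other strand. Its reads may be included too, as whether counting used strand is not given in the sources used here.

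MNT, a broadly expressed repressor, had a log2 level of 9.22 and 9.35 with sgKLHL14 in ibrutinib, against 8.98 and 9.03 in DMSO. It rose by 0.28 there (SE 0.103, adjusted p = 0.0372 by limma). With sgCTRL the level was 9.23 and 9.32 in ibrutinib and 9.26 and 8.98 in DMSO, where the groups overlapped and the difference of 0.16 missed the threshold (adjusted p = 0.256). The MNT call was lost without replicate 1 or replicate 2 of sgKLHL14 in DMSO (adjusted p = 0.130 and 0.0731) and without replicate 2 of sgKLHL14 in ibrutinib (adjusted p = 0.219). MGA had a log2 level of 10.52 and 10.80 with sgKLHL14 in ibrutinib, against 10.18 and 10.62 in DMSO, where the groups overlapped. With sgCTRL it was 10.59 and 10.77 in ibrutinib, against 10.55 and 10.51 in DMSO. The differences of 0.26 and 0.15 missed the threshold (SE 0.113, adjusted p = 0.0725 and 0.329 by limma). The value for sgKLHL14 turned on each of its libraries. Without replicate 1 in DMSO it was 0.039 (adjusted p = 0.807), and without replicate 2 in DMSO it was 0.49 (adjusted p = 0.00119). Without replicate 1 in ibrutinib it was 0.40 (adjusted p = 0.0251), and without replicate 2 in ibrutinib it was 0.12 (adjusted p = 0.527).

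Neither gene of the glucose-sensing arm was called with either guide. MLX had a log2 level of 11.17 and 11.04 with sgKLHL14 in ibrutinib, against 11.13 and 11.06 in DMSO, and 11.05 and 11.08 with sgCTRL in ibrutinib, against 11.01 and 10.96 in DMSO. MLXIP had 10.42 and 10.63 with sgKLHL14 in ibrutinib, against 10.47 and 10.49 in DMSO, and 10.45 and 10.50 with sgCTRL in ibrutinib, against 10.53 and 10.46 in DMSO. The MLX difference was 0.010 with sgKLHL14 (95% interval -0.13 to 0.15) and 0.083 with sgCTRL (95% interval -0.058 to 0.22). For MLXIP it was 0.048 with sgKLHL14 (95% interval -0.11 to 0.21) and -0.015 with sgCTRL (95% interval -0.18 to 0.15). Exons of MLX overlap PSMC3IP on the other strand, which its reads may include.

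In all, 4 of the 10 network genes were called with sgKLHL14 (MXD4 and MNT higher, MXI1 and MAX lower), where 39.3% of all genes tested were called (19.9% higher, 19.4% lower). With sgCTRL 3 of the 10 were called (MXD4 higher, MYC and MXI1 lower), where 35.1% of all genes were called (18.1% higher, 17.0% lower). These shares are near the background. With sgKLHL14 the ibrutinib and DMSO libraries did not overlap for 7 of the 10 (4 higher, 3 lower), beside 67.8% of all genes (34.7% higher, 33.1% lower). With sgCTRL they did not overlap for 8 of the 10 (5 higher, 3 lower), beside 69.8% of all genes (36.7% higher, 33.1% lower). The direction was the same with both guides for 9 of the 10 genes, all but MLXIP, and for 83.1% of all genes. MXD4 and MXI1 were called in the same direction with both guides, 20% of the network genes, as were 27.8% of all genes.

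**Figure D2:**
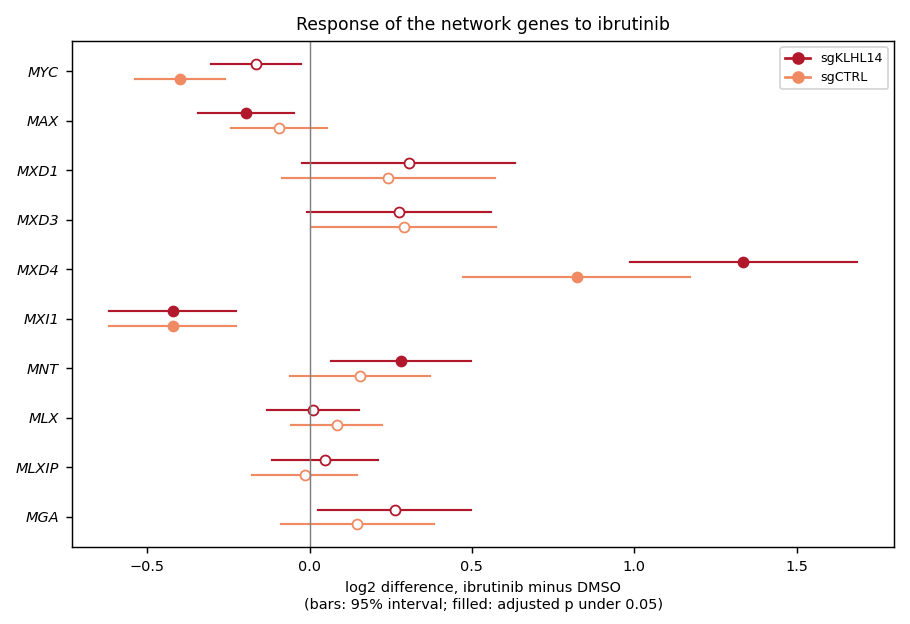
Log2 difference, ibrutinib minus DMSO (x axis), of each network gene (rows) with sgKLHL14 and with sgCTRL, as points with 95% intervals. Filled points passed an adjusted p of 0.05. MXD4 stands at 1.34 and 0.82 on the right, while MXI1 stands at -0.42 with both guides.

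The promoters of the network genes were searched for the E-box that the network binds. RefSeq promoters of build GRCh38.p14 were matched for 9 of the 10 genes, all but MYC. For MXD3 and MGA the bases after the RefSeq start were not found in a GENCODE transcript of the gene, so their windows may belong to another start. For the rest a match to any transcript of the gene was accepted, and other promoters of the network genes were not searched. The 250 bases before each start were searched on both strands for CACGTG, which reads the same on both. It was found for MXD4, MNT and MLX, 3 of the 9, and in 6.35% of the 35114 promoters in the table. The looser letters CANNTG, of which CACGTG is a special case, were in 61.8% of all promoters and were not found in those of MAX, MXI1, MLXIP and MGA. The MXD4 promoter, chr4:2262110-2262359 on the minus strand, is printed as that of the network gene with the largest rise, and the MXI1 promoter, chr10:110225746-110225995 on the plus strand, as that of the repressor that fell. Those of MNT, chr17:2401061-2401310 on the minus strand, and MLX, chr17:42566850-42567099 on the plus strand, are the others that hold the motif. Capitals mark CACGTG.
MXD4: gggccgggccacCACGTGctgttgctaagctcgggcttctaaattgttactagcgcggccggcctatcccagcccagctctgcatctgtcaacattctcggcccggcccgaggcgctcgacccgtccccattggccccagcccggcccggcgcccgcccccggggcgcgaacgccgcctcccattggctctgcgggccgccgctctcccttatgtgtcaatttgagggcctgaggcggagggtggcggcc
MXI1: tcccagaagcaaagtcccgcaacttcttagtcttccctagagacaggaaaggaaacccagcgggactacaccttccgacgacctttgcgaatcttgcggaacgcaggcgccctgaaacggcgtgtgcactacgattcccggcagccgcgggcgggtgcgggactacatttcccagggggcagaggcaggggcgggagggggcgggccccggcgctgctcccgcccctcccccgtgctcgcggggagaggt
MNT: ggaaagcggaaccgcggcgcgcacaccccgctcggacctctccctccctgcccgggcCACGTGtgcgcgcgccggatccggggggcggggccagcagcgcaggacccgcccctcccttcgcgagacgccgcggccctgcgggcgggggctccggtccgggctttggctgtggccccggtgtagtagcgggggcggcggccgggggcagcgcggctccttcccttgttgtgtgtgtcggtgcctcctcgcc
MLX: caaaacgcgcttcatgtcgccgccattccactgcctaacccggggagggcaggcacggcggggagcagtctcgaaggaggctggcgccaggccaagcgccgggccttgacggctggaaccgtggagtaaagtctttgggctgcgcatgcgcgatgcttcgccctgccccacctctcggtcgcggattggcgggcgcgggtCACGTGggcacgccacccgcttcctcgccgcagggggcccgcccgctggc
The first base of the motif lies 238 bases before the start in MXD4, 193 in MNT and 50 in MLX. Of these 3 genes MXD4 rose with both guides and MNT with sgKLHL14, while MLX was not called. The match is a description of letters and not of binding.

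The levels per kilobase show how the balance of activator and antagonists differed between the libraries. MYC divided by the sum of MXD1, MXD3, MXD4, MXI1 and MNT, on the linear scale per kilobase, was 4.18 and 4.198 with sgKLHL14 in ibrutinib, against 5.32 and 4.95 in DMSO. With sgCTRL the ratio was 3.62 and 3.55 in ibrutinib, against 5.09 and 4.75 in DMSO. All 4 ibrutinib libraries had a lower ratio than all 4 DMSO libraries. MXD4 made up 16.4% and 18.7% of the summed level per kilobase of MXD1, MXD3, MXD4 and MXI1 with sgKLHL14 in ibrutinib, against 6.74% and 7.94% in DMSO. With sgCTRL its share was 18.3% and 14.4% in ibrutinib, against 9.82% and 8.91% in DMSO. MXI1 made up 39.5% and 38.8% with sgKLHL14 in ibrutinib, against 55.4% and 55.2% in DMSO, and 37.8% and 39.8% with sgCTRL in ibrutinib, against 50.9% and 54.9% in DMSO. These ratios repeat the changes of the single genes on another scale and were not tested.

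**Figure D3:**
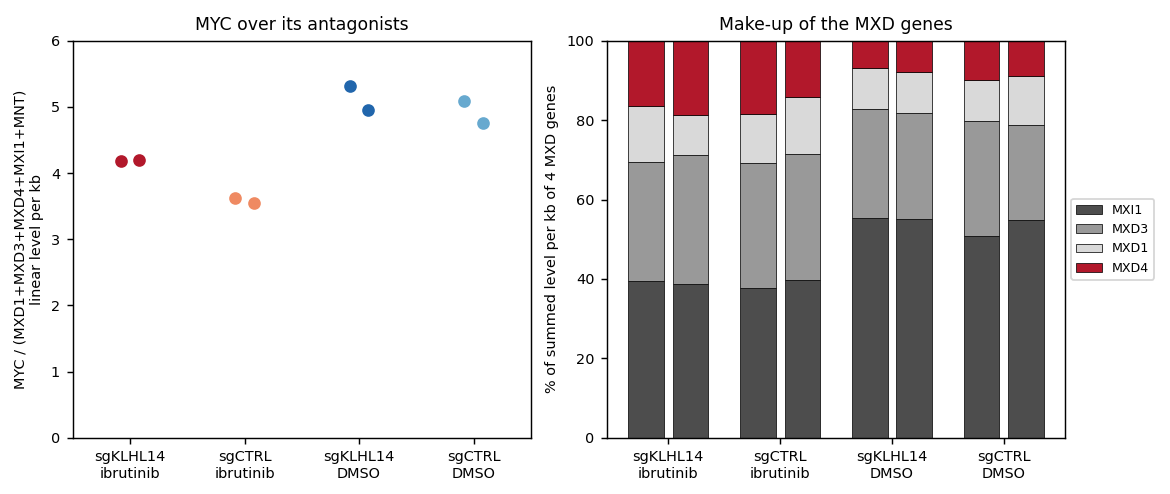
Balance within the network in each library of the 4 groups (x axis), on the linear scale per kilobase of transcript. Points on the left are MYC over the summed level of MXD1, MXD3, MXD4, MXI1 and MNT, and stacked bars on the right are the percent shares of MXI1, MXD3, MXD1 and MXD4, 1 bar per library. The ratio lies between 3.55 and 4.198 in ibrutinib and between 4.75 and 5.32 in DMSO.

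The guides were compared within each treatment, to ask whether cells with the KLHL14 guide hold the network at another level. These comparisons share their libraries with those of ibrutinib against DMSO. In ibrutinib MYC was the only network gene called: it rose by 0.27 with sgKLHL14 over sgCTRL (12.22 and 12.22 against 11.99 and 11.92, SE 0.066, 95% interval 0.13 to 0.41, adjusted p = 0.0341 by limma). That is 1 of the 10 genes, beside 2.38% of all genes tested, or 1.59% in the same direction. The call was lost when any 1 of the 4 libraries compared was left out, with adjusted p between 0.137 and 0.430, while the difference stayed between 0.23 and 0.30. It was also lost without the filter on low values (adjusted p = 0.397) and without a variance trend (adjusted p = 0.258). The other differences in ibrutinib lay between -0.10 for MAX and 0.16 for MXD4. Libraries of the 2 guides did not overlap in ibrutinib for MYC and MXI1 (higher with sgKLHL14) and MAX (lower), beside 43.9% of all genes (21.6% higher, 22.3% lower).

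In DMSO 0 of the 10 network genes were called between the guides by limma and likewise 0 by voom on recovered reads, beside 1.64% of all genes (0.782% higher, 0.862% lower). A single gene, MXD4, had an unadjusted p under 0.05. Its level was 6.55 and 6.75 with sgKLHL14 and 7.07 and 6.93 with sgCTRL, which do not overlap, and its difference of -0.35 had an adjusted p of 0.361. MYC differed by 0.036 (95% interval -0.10 to 0.17). Libraries of the guides did not overlap in DMSO for MLX (higher with sgKLHL14), MXD1 and MXD4 (lower), beside 41.7% of all genes (21.5% higher, 20.2% lower).

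**Figure D4:**
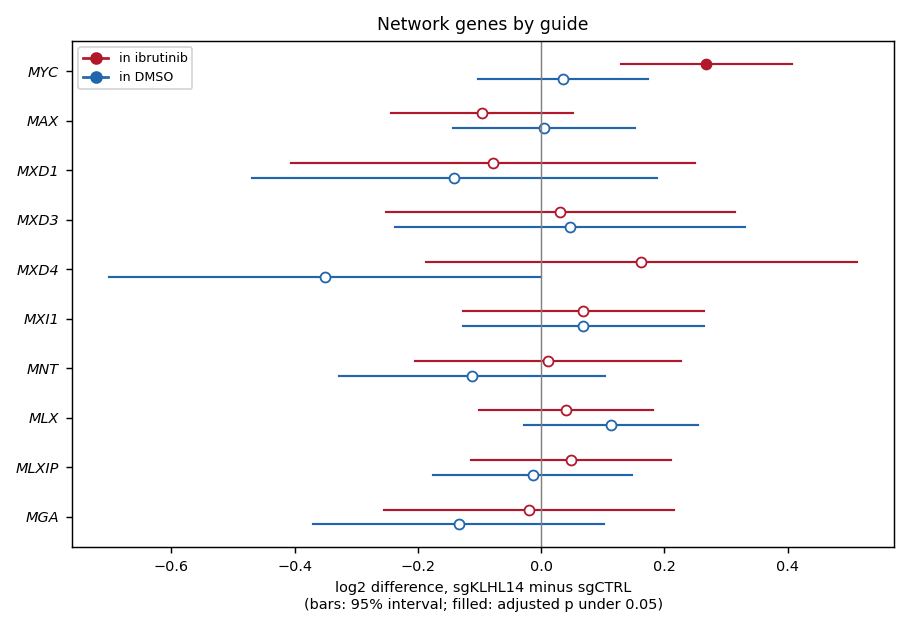
Log2 difference, sgKLHL14 minus sgCTRL (x axis), of each network gene (rows) in ibrutinib and in DMSO, as points with 95% intervals. Filled points passed an adjusted p of 0.05, and the only one is MYC in ibrutinib, at 0.27.

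Whether the response to ibrutinib differed between the guides was tested as the difference between both responses. For 0 of the 10 genes did it pass by limma, and for 0 by voom on recovered reads, beside 0.0239% of all genes, while 2 had an unadjusted p under 0.05. The MYC response with sgKLHL14 was less negative than with sgCTRL by 0.23 (SE 0.094, 95% interval 0.036 to 0.43, adjusted p = 0.858 by limma). The MXD4 response was greater with sgKLHL14 by 0.51 (SE 0.236, 95% interval 0.018 to 1.01, adjusted p = 0.873 by limma). The intervals are for single genes. So the MYC call with sgCTRL alone, and the MAX and MNT calls with sgKLHL14 alone, were not shown to differ between the guides. The MXI1 responses had the same mean, with a 95% interval for their difference of -0.28 to 0.28.

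Many genes that MYC is known to activate fell in ibrutinib. Of 63 such genes tested, 40 fell with sgKLHL14, against 19.4% of all genes, and 29 fell with sgCTRL, against 17.0% of all genes. By limma 0 rose with either guide, and 0 by voom. At an unadjusted p under 0.05, 1 gene was higher with sgKLHL14 and 0 with sgCTRL. The median change was -0.22 with sgKLHL14 and -0.15 with sgCTRL, while the median of all genes was 0.010 and 0.018. TFRC, the transferrin receptor, fell by 0.80 with sgKLHL14 (13.75 in ibrutinib, 14.56 in DMSO) and by 1.09 with sgCTRL (13.54 in ibrutinib, 14.63 in DMSO). SHMT2, the mitochondrial serine hydroxymethyltransferase, fell by 0.90 with sgKLHL14 and by 0.88 with sgCTRL. DUSP2, a phosphatase of MAP kinases, fell by 1.16 with sgKLHL14 and by 1.35 with sgCTRL. HSPD1, the mitochondrial chaperonin, fell by 0.58 with sgKLHL14 and by 0.50 with sgCTRL. The highest adjusted p of these 8 changes was 2.12e-06 by limma. The count with sgKLHL14 was 19 without the level filter, and the count with sgCTRL was 16 without it, 19 without a variance trend and 19 without replicate 2 of sgCTRL in ibrutinib. Between the guides in DMSO 2 of the 63 genes were called, both higher with sgKLHL14, beside 0.782% of all genes. SRM, which makes spermidine, rose by 0.29 and CDK4, a kinase of the cell cycle, by 0.28 (adjusted p = 0.0331 and 0.0428 by limma). MYC differed by 0.036 there. In ibrutinib, where MYC was called higher with sgKLHL14, 0 of the 63 were called. The median of the 63 genes was 0.11 in DMSO and 0.057 in ibrutinib. At an unadjusted p under 0.05, 22 of the 63 were higher with sgKLHL14 in DMSO and 0 lower. In ibrutinib 6 were higher and 2 lower. The difference between the ibrutinib responses passed for 0 of the 63 by limma. So the counts of 40 and 29 that fell were not shown to differ between the guides. MYC itself missed the threshold for ibrutinib with sgKLHL14 (-0.17) and fell by 0.40 with sgCTRL. Whether the list changed through MYC was not tested.

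Of 13 genes that MYC is known to repress, 5 rose with sgKLHL14 and 4 with sgCTRL, beside 19.9% and 18.1% of all genes, and by limma or voom 0 fell, as at an unadjusted p under 0.05. Their medians were 0.087 and 0.083, against 0.010 and 0.018 for all genes. Both counts that rose include TXNIP, which is given below with the targets of MLX and MLXIP. BTG2, an antiproliferative gene, rose by 1.01 with sgKLHL14 and 0.80 with sgCTRL. BTG1, its relative, rose by 0.69 with sgKLHL14 and 0.72 with sgCTRL. SESN1, a stress-induced sestrin, rose by 0.62 with sgKLHL14 and 0.66 with sgCTRL. KLF2, a factor of quiescent lymphocytes, rose by 0.59 with sgKLHL14 (adjusted p = 0.000138 by limma) and differed by 0.053 with sgCTRL, and the difference between these responses was 0.54 (adjusted p = 0.481 by limma). CDKN1A, the inhibitor p21, was not called for ibrutinib but rose by 0.35 with sgKLHL14 over sgCTRL in ibrutinib (adjusted p = 0.00241 by limma).

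**Figure D5:**
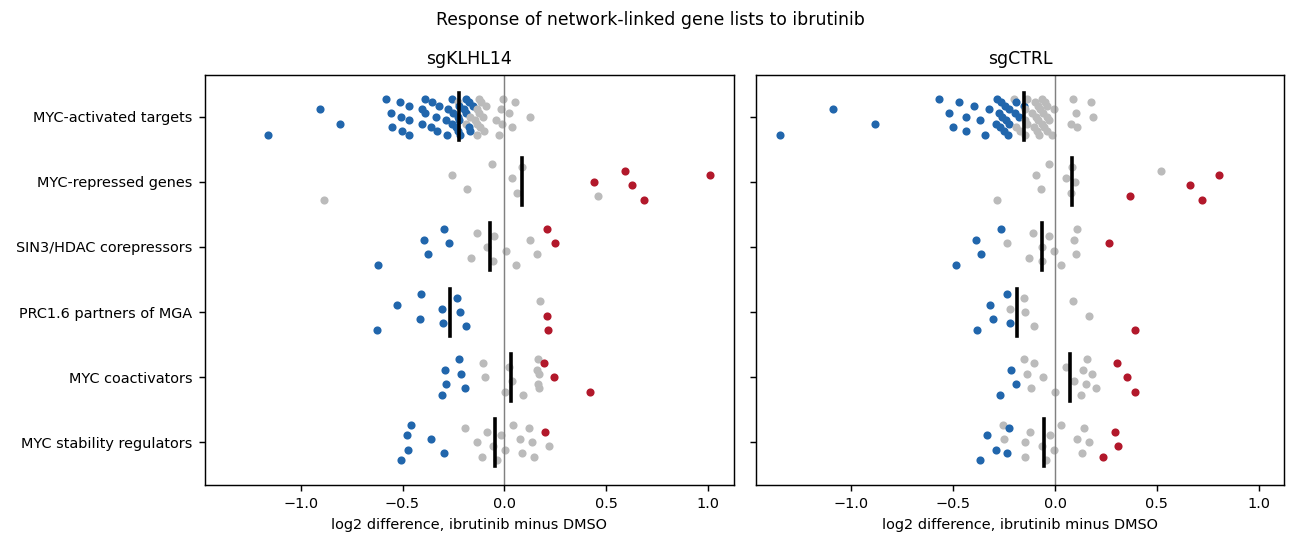
Log2 difference, ibrutinib minus DMSO (x axis), of each gene in 6 lists linked to the network (rows), with sgKLHL14 on the left and sgCTRL on the right. Points are genes, in blue where they fell, red where they rose and grey where not called, and the black bar is the median of the list. The bars of the MYC-activated targets stand at -0.22 with sgKLHL14 and -0.15 with sgCTRL.

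Of 5 targets of MLX and MLXIP tested, TXNIP, the thioredoxin-binding arrestin that is their best known target, rose by 0.44 with sgKLHL14 and 0.37 with sgCTRL, though the sgCTRL call missed the threshold without the level filter (adjusted p = 0.0502 by limma). SESN2, a sestrin that stress factors also induce, fell by 1.75 with sgKLHL14 and 1.88 with sgCTRL. In each direction 1 of the 5 was called with either guide, near the shares of all genes (19.9% higher and 19.4% lower with sgKLHL14, 18.1% and 17.0% with sgCTRL), and the median was -0.037 with sgKLHL14 and 0.028 with sgCTRL. ARRDC4 was listed at 0 in all libraries. KLF10, a Kruppel-like factor, rose with sgKLHL14 over sgCTRL by 0.72 in ibrutinib and 0.72 in DMSO (adjusted p = 0.000884 and 0.00187 by limma), and PFKFB3, a regulator of glycolysis, fell by 0.30 in DMSO (adjusted p = 0.0455).

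Of the 16 genes of the SIN3 and HDAC corepressors that MXD proteins and MNT recruit, 5 fell and 2 rose with sgKLHL14, and 4 fell and 1 rose with sgCTRL, with medians of -0.070 and -0.065. Over all genes 19.4% fell and 19.9% rose with sgKLHL14, and 17.0% fell and 18.1% rose with sgCTRL. The 2 that rose with sgKLHL14, SIN3B and ARID4B, lost their calls when single libraries were left out. Without replicate 1 of sgKLHL14 in DMSO both were lost, at 0.20 and 0.16. Without replicate 2 of sgKLHL14 in ibrutinib both were lost too, at 0.12 and 0.21. The 1 with sgCTRL, SIN3B, was lost without replicate 1 (0.26) or replicate 2 (0.27) of sgCTRL in ibrutinib. The deacetylase gene HDAC3 fell by 0.30 with sgKLHL14 and 0.37 with sgCTRL, and HDAC2 by 0.27 with either guide. Those that rose were SIN3B with both guides (0.21 with sgKLHL14 and 0.265 with sgCTRL) and ARID4B with sgKLHL14 (0.25). Of 12 PRC1.6 partners of MGA, 9 fell and 2 rose with sgKLHL14, and 5 fell and 1 rose with sgCTRL, beside the same shares of all genes (19.4% lower and 19.9% higher with sgKLHL14, 17.0% and 18.1% with sgCTRL). Their medians were -0.27 with sgKLHL14 and -0.19 with sgCTRL. Those that rose were L3MBTL2 with both guides (0.21 with sgKLHL14 and 0.39 with sgCTRL) and EHMT1 with sgKLHL14 (0.21). Of these calls only that of L3MBTL2 with sgCTRL held under all 18 alternatives. E2F6, a repressor of the E2F family, fell by 0.63 with sgKLHL14 and 0.38 with sgCTRL, and its partner TFDP1 fell by 0.53 with sgKLHL14 and 0.24 with sgCTRL. With sgCTRL both calls were lost without replicate 2 of sgCTRL in ibrutinib (adjusted p = 0.167 for E2F6 and 0.0574 for TFDP1, limma) or in DMSO (adjusted p = 0.116 and 0.0998). The sgCTRL count of 5 was 0 without replicate 2 of sgCTRL in ibrutinib, 3 without replicate 1, 1 without replicate 2 of sgCTRL in DMSO and 0 without the level filter, and the sgKLHL14 count of 9 was 4 without replicate 2 of sgKLHL14 in ibrutinib and 3 without the level filter.

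Among 20 MYC coactivators, 3 rose and 6 fell with sgKLHL14, and 3 rose and 3 fell with sgCTRL, with medians of 0.031 and 0.072, beside 19.9% of all genes higher and 19.4% lower with sgKLHL14 and 18.1% and 17.0% with sgCTRL. These counts turned on single libraries: with sgKLHL14 they were 1 and 3 without replicate 2 in ibrutinib, and with sgCTRL 0 fell without replicate 2 in ibrutinib or replicate 1 in DMSO. The same 3 genes rose with both guides. KAT2B, an acetyltransferase, rose by 0.42 with sgKLHL14 and 0.30 with sgCTRL, and KAT2A by 0.24 and 0.35. ACTL6A, a subunit of chromatin remodelling complexes, fell by 0.29 with sgKLHL14. SMARCB1, another such subunit, rose by 0.19 with sgKLHL14 and 0.39 with sgCTRL. Among 22 genes that set the stability of MYC protein, 1 rose and 6 fell with sgKLHL14, and 3 rose and 5 fell with sgCTRL, with medians of -0.048 and -0.055, beside those same shares of all genes. Without replicate 1 of sgCTRL in ibrutinib the sgCTRL counts were 1 and 3. PLK1, the mitotic kinase, fell by 0.51 with sgKLHL14 and 0.37 with sgCTRL, and AURKA, which shields MYC family proteins from degradation, by 0.46 with sgKLHL14 and 0.34 with sgCTRL. The gene listed as KIAA1524 (CIP2A), an inhibitor of the phosphatase PP2A, fell by 0.48 with sgKLHL14 and 0.23 with sgCTRL. The 3 that rose with sgCTRL were PIM1 (0.29), TRIM32 (0.31) and SKP2 (0.24), and the 1 with sgKLHL14 was PIM1 (0.20). The PIM1 call with sgCTRL held under all 18 alternatives, and the other calls did not. PIM2, a survival kinase, differed by -0.11 with sgKLHL14 (adjusted p = 0.132 by limma) and fell by 0.29 with sgCTRL. In ibrutinib PIM2 rose by 0.31 with sgKLHL14 over sgCTRL (adjusted p = 0.00407 by limma).

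Of the neighbours of MYC on its chromosome 2 were tested. PVT1, a long non-coding RNA gene, differed by 0.096 with sgKLHL14 and -0.074 with sgCTRL, and TRIB1, a pseudokinase gene, rose by 0.38 with sgKLHL14 (adjusted p = 0.000827 by limma) and differed by 0.14 with sgCTRL. Of the other MYC family genes, MYCN was listed at 0 in all libraries, and MYCL1, at a mean log2 level of 5.14, differed by -0.094 with sgKLHL14 and -0.057 with sgCTRL (SE 0.343).

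Over the 8 libraries the members were set beside MYC by the Pearson correlation of their log2 levels, as a description in which the groups and the depth of each library are shared. MXI1 followed MYC most closely among the network genes (r = 0.813), then MAX (0.487), while MXD4 (-0.689) and MXD1 (-0.681) ran the other way. Of 10081 genes with an official symbol, those most like MYC were REXO4 (r = 0.978), FRMD6 (0.974), SCNM1 (0.973), KCNN4 (0.973) and TICAM1 (0.972), and those most opposed were DCLK2 (-0.981), GALNT4 (-0.971), PRDM4 (-0.969), MCC (-0.964) and HEATR5A (-0.961).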

How the data were processed

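The kit for the TMD8 libraries was stranded and selected poly(A) RNA, per the labels' protocols. The submitters' processing notes name bcl2fastq, STAR and HTSeq with the build hg19, without versions. The authors deposited log2 values of library-scaled reads. Tested on the table, 100% of the values were log2 of whole reads times a library factor (tolerance 6e-04), and 1 read was worth 1.16 to 2.19. The table had a row of total reads, which was left out, and 0 columns of other samples.

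The 12531 genes with a mean log2 level of at least 4.2 entered a model of 4 group means (limma 3.58.1, R 4.3.3) with a variance prior that follows the mean (4 residual and 14.9 prior degrees of freedom) and two-sided tests. A gene was called where its p, adjusted by Benjamini-Hochberg over all genes fitted, was under 0.05. Intervals are for 1 gene at 95%. No pseudocount entered, since 0 of the genes fitted had a library without reads. Depth was 12333876 to 23467110 reads, so genes of low level have more counting error. The fit was also run on simulated counts with few changed genes and the same dispersion for every gene. For ibrutinib many more genes were called, so that run does not give the error rate of those comparisons.

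The network genes and the gene lists were chosen with earlier results of these data known, so nothing here is independent of them. Named from each list were up to 4 called genes in each direction per ibrutinib contrast by smallest p, as well as the genes called between the guides, KLHL14, BTK and the genes most and least like MYC. Not every gene so chosen is printed. TXNIP, PLK1, CBX3 and WDR5 are each counted in more than a single list, so the list counts are not independent. Genes of the locus, family and repressed lists that were not called were added after their values were seen. Promoter sequences are from RefSeq (GRCh38.p14), transcript lengths and overlaps from GENCODE 29, and no coordinate was converted between builds. Alternatives were other filters, scalings, a pseudocount of 16, variance priors, the groups compared alone, voom on recovered reads, a replicate block and leaving out each library. The same alternatives were run for the lists in ibrutinib against DMSO only, and were chosen after seeing the data.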

Additional observations from a re-analysis of the deposited data

How the results depend on the processing

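MXD4 and MXI1 with sgKLHL14, and MYC and MXI1 with sgCTRL, kept direction and call under all 18 alternatives, and MXD4 with sgCTRL under all but the fit without a level filter. The list results for ibrutinib against DMSO were recomputed under alternatives chosen after seeing the data. Those between the guides were not. So the calls of SRM, CDK4, CDKN1A, KLF10, PFKFB3 and PIM2 between the guides have no such check. Without the level filter the genes called numbered 2838 of 4924 for ibrutinib with sgKLHL14 (2 network genes of 4), 2280 of 4403 with sgCTRL, 19 of 298 between the guides in ibrutinib (0 network genes of 1) and 81 of 206 in DMSO. Without a variance trend 2 network genes were called for ibrutinib with sgKLHL14, 95 genes between the guides in ibrutinib (0 network genes), 25 in DMSO and 0 for the difference between responses, where 3 had been called. The replicate numbers were not used as pairs: deviations of same-numbered libraries correlated between -0.055 and 0.122, with 1 of 6 pairs of groups over 0.1. Low correlations cannot show that the cultures were unpaired, and the labels do not say. With the replicate block 368 genes were called between the guides in DMSO and 5 for the difference between responses, and MYC (adjusted p = 0.0250) and MGA (adjusted p = 0.0133) passed for ibrutinib with sgKLHL14. Leaving out 1 library at a time gave 2 to 5 network genes for ibrutinib with sgKLHL14, 2902 to 4631 genes with sgCTRL, 64 to 530 between the guides in DMSO, 122 to 363 in ibrutinib and 0 to 1 network genes there. The extremes were replicate 1 of sgKLHL14 in DMSO (2 network genes), replicate 2 of sgCTRL in ibrutinib (2902 and 122), replicate 1 of sgCTRL in DMSO (64) and replicate 2 of sgKLHL14 in DMSO (530). MYC with sgKLHL14 passed for ibrutinib without replicate 2 of sgKLHL14 in DMSO (-0.23, adjusted p = 0.0227) or either sgCTRL library in DMSO (0.0392 and 0.0391). Among the lists, leaving out 1 library gave 1 to 7 coactivators that rose with sgKLHL14 and 2 to 6 with sgCTRL, 0 to 2 PRC1.6 partners that rose with sgKLHL14, and 1 to 3 stability regulators that rose with sgCTRL.

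The values that changed sign were not called. Leaving out 1 library, the ibrutinib difference ran from -0.057 to 0.077 for MLX and -0.060 to 0.155 for MLXIP with sgKLHL14, and -0.053 to 0.023 for MLXIP with sgCTRL. Between the guides in ibrutinib it ran from -0.057 to 0.382 for MXD4, -0.332 to 0.176 for MXD1, -0.012 to 0.074 for MXD3, -0.053 to 0.076 for MNT, -0.026 to 0.108 for MLX, -0.059 to 0.156 for MLXIP and -0.159 to 0.120 for MGA. In DMSO it ran from -0.048 to 0.119 for MYC, -0.046 to 0.056 for MAX, -0.084 to 0.178 for MXD3, -0.255 to 0.029 for MNT, -0.052 to 0.024 for MLXIP and -0.357 to 0.089 for MGA, and median scaling gave MAX -0.012. The difference between responses ran from -0.191 to 0.317 for MXD1, -0.147 to 0.115 for MXD3, -0.017 to 0.266 for MNT, -0.045 to 0.170 for MLXIP and -0.109 to 0.338 for MGA. The cause was not tested. The median log2 levels of the libraries lay within 0.015 of their mean.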
